A study of Mus musculus with 4 samples.

Results

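The IL-3 and GM-CSF receptor signalling genes are 8 genes named by symbol: Il3ra, Csf2ra, Csf2rb, Csf2rb2, Jak2, Stat5a, Stat5b and Cish. They are 8 of 21900 protein-coding genes of mouse in the RefSeq annotation of GRCm38.p6. Each was examined over its gene body plus 2 kb on either side, called its window here. The dimethyl mark of histone H3 known as H3K79me2 was profiled by chromatin immunoprecipitation and sequencing in dendritic cells that had been grown from the bone marrow of C57BL/6J mice (BMDCs). The cells were kept in medium with 10% fetal bovine serum. Control cells received PBS, and treated cells received the amino acid lysine at 18 mM over 6 h. The labels give no time for PBS, name no genetic change, age or sex of the mice, and name no growth factor for the cultures. Of the 4 samples, the H3K79me2 library of each condition was used, and the input library of each was not used here.

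Receptors for interleukin-3 (IL-3) and granulocyte-macrophage colony-stimulating factor (GM-CSF) pair a ligand-specific alpha chain, Il3ra or Csf2ra, with a shared beta chain, Csf2rb. Mice also carry Csf2rb2, a close copy of the beta chain gene whose product serves IL-3. The tyrosine kinase Jak2 is bound to the beta chain and phosphorylates the transcription factors Stat5a and Stat5b, which switch on Cish, a SOCS-family inhibitor of the same receptors. GM-CSF is the cytokine widely used to obtain dendritic cells from bone marrow, and IL-3 acts on many myeloid cells. H3K79me2 is written by the methyltransferase Dot1l and typically lies over the front part of transcribed genes.

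The genes were chosen by their pathway, but with measured values in view, namely the widths and covered lengths of the broad peaks and above all the wide PBS regions on Il3ra. Their covered lengths are therefore a description of 2 libraries. With 1 library per condition there is no spread between replicates, no test was made, and the depth of the libraries is unknown because the lists hold no read counts. Covered length is the number of bp of a window under the authors' broad peaks, and narrow blocks are the narrower stretches that the gapped lists mark inside such a peak. Fold (signal over local background) and −log10 q (significance) are the authors' values and place a peak within its own list. It depends on how much was called in each list: the PBS list held 11926 peaks over 6.78 Mb and the lysine list 9805 peaks over 5.40 Mb, which is 79.6% of the PBS length. The marker counts that follow stand beside a peak in the window of 36.9% of all protein-coding genes in PBS and 34.0% in lysine. Of 15 dendritic cell markers, PBS had peaks at 10 and lysine at 5 (11004 and 5630 bp covered in sum). Irf4, Batf3, H2-Aa, Ccr7 and Spi1 had none in either library. Summed over both libraries, Cd86 (2478 and 1081 bp) and Cd74 (900 and 2441 bp) had the most, while in PBS alone H2-Ab1 had the most, with 2602 bp and none in lysine, and H2-Eb1 had 1325 bp and none. Macrophage and monocyte markers had a peak at 7 of 12 genes in PBS and 3 in lysine (4943 and 2065 bp, led, by the sum of both, by Cd68 with 2467 and 1163 bp and Msr1 with 416 and 443 bp), and Adgre1 and Lyz2 had none. Neutrophil markers had 3 and 2 of 11 (1382 and 646 bp, led in the same way by Ltf and Mmp8), mast cell and basophil markers 2 and 1 of 11 (1077 and 384 bp, led in this way by Hdc and Il1rl1), and T and B cell markers 1 and 1 of 10 (Cd3d, 519 and 555 bp). None of 7 eosinophil markers and none of 12 genes silent in blood cells had a peak. Other coding genes reach into some of the named windows, so the lengths there may belong to those genes. At the markers with the most covered length over both libraries they are Mpdu1 and Eif4a1 at Cd68, Tcof1 at Cd74, Il18r1 at Il1rl1 and Cd3g at Cd3d. At pathway genes named further on they are Hmgxb3 at Csf1r, Mcam at Cbl, Clstn1 at Pik3cd, Nab2 at Stat6 and Stat5a at Stat3. Stat3 likewise reaches into the Stat5a window. The part of other cells in the values below was not tested.

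The promoters that the results turn on are shown first, as RefSeq gives them on GRCm38.p6. Each sequence runs on the gene's strand from 250 bases before the annotated start to 30 bases after it. Capitals mark matches to TTCNNNGAA, the core that STAT5 proteins bind, and to GAGGAA or its reverse complement TTCCTC, the core bound by the myeloid factor PU.1. Il3ra is shown because it held the longest covered length, Cish as the STAT5 target, Csf2ra as the GM-CSF alpha chain whose promoter lay outside its peaks, and the downstream Stat5a promoter because peaks of both libraries met there.
Il3ra, chr14:14346245-14346524, plus strand: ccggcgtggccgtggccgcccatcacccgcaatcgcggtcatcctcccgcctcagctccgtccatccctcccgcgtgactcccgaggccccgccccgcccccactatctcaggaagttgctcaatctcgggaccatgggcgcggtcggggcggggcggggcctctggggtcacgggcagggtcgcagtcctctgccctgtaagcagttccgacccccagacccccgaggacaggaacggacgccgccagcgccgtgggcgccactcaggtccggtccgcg
Cish, chr9:107296409-107296688, plus strand: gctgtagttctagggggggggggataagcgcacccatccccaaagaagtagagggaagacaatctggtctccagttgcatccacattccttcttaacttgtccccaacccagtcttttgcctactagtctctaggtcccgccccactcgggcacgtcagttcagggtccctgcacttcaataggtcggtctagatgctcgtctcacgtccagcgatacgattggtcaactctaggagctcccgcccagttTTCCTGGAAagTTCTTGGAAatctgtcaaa
Csf2ra, chr19:61228389-61228668, minus strand: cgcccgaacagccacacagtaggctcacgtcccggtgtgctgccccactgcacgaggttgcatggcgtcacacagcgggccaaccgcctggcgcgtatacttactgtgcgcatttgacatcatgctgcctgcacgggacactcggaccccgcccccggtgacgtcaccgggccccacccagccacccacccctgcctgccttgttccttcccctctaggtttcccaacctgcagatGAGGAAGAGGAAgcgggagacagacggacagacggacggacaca
Stat5a, downstream start, chr11:100860234-100860513, plus strand: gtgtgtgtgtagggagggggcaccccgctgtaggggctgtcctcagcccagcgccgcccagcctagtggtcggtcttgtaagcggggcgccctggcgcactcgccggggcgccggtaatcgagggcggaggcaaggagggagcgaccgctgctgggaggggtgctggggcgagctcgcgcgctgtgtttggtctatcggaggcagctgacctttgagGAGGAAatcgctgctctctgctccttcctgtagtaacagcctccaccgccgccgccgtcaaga
The Cish promoter carries TTCCTGGAA from position 1 to 9 and TTCTTGGAA from position 12 to 20, counted from the annotated start as position 1. TTCNNNGAA was found in 8.30% of 32851 RefSeq promoter windows of 300 bases, and 0.457% held at least 2 matches. That motif reads the same on both strands, and although it can overlap GAGGAA, no matches overlapped in these genes. Csf2ra carries GAGGAA from -14 to -9 and again from -8 to -3, and 4.82% of all windows held at least 2 matches on either strand, while 28.3% held at least 1. The downstream Stat5a promoter has a single GAGGAA, from -33 to -28. Csf2rb2, not printed, has TTCTGAGAA from -15 to -7 and 2 matches to the PU.1 core. In the windows of Il3ra, Jak2 and Stat5b and the upstream one of Stat5a, neither string of letters was found. A promoter window was listed for 7 of the 8 genes, and a match describes letters, not binding.

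H3K79me2 peaks lay on 6 of the 8 genes in each library, and the PBS library had more of the called mark on them. Il3ra, Csf2ra, Jak2, Stat5a, Stat5b and Cish had peaks, and both beta chain genes had none. Over all protein-coding genes 36.9% had a PBS peak in the window and 34.0% a lysine peak. At least 500 bp were covered in 6 members in PBS, against 21.5% of all genes, and in 5 in lysine, against 18.7%. With the overlap of the Stat5a and Stat5b windows counted once, the PBS peaks covered 13524 bp and the lysine peaks 7837 bp, which is 57.9% of the PBS length. Il3ra alone made up 80.3% of the difference of -5687 bp. Without Il3ra the other 7 genes had 5982 and 4860 bp, or 81.2%, beside 81.6% for the windows of all genes together. The direction of these 7 turned with the way of counting, with lysine longer by 919 bp among peaks of fold 4 or more, by 1595 bp with equal numbers of peaks and by 340 bp by narrow blocks, and the difference was -35 bp under a minimum −log10 q of 2.

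Covered length was shorter in lysine in 4 members (Il3ra, Stat5a, Stat5b and Cish), against 24.5% of all genes, and longer in 2 (Csf2ra and Jak2), against 16.8%. In 3 members the shortfall reached 500 bp, against 5.86% of all genes, and in 1 the gain did, against 2.87%. Of the 6 members with a peak in either library 4 were shorter and 2 longer, where 59.3% and 40.6% of such genes were, and 3 and 1 passed 500 bp, where 14.1% and 6.93% did. The median difference was -692.5 bp over the 6 members with a peak in either library and -64 bp over the 9070 genes of that kind (quartiles -352 and 138 bp). These counts were known when the genes were put together and nothing is read from them. They also moved with the way of counting: with equal numbers of peaks in both lists, with peaks of a fold of at least 4, or by narrow blocks, 2 members were shorter and 4 longer in lysine.

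**Figure D1:**
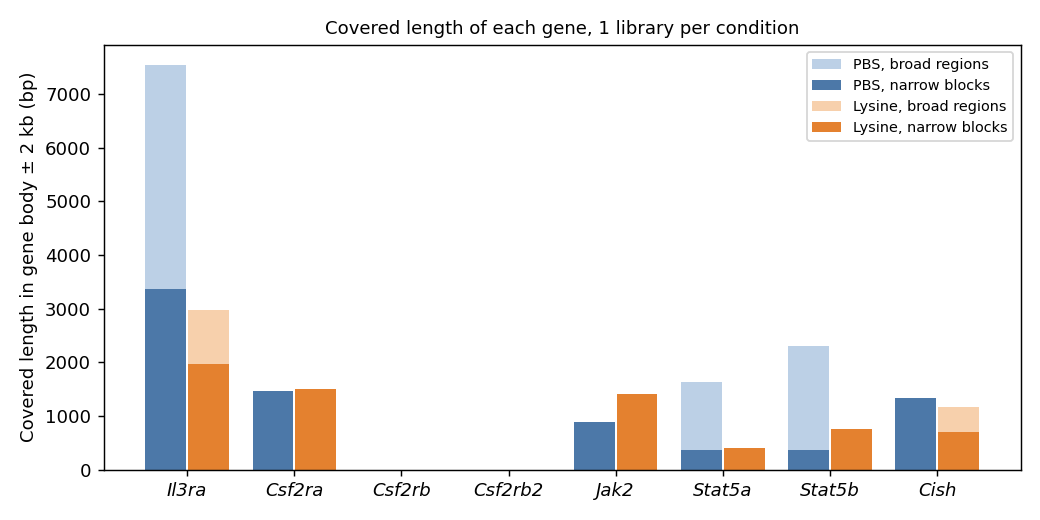
Covered length in bp (vertical axis) of each of the 8 genes, gene body plus 2 kb on either side, in the PBS and the lysine library. Pale bars are broad regions and the dark part of each bar is the narrow blocks inside them, with 1 library per condition and no error bars. Il3ra stands at 7542 bp in PBS and 2977 bp in lysine, no other bar passes 2304 bp, and the bars of Csf2rb and Csf2rb2 are at 0.

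Among the receptor chains, Il3ra, which gives the IL-3 receptor its ligand specificity, had the most covered length of any protein-coding gene in PBS. It is a short gene of 9582 bp (chromosome 14, 14345912 to 14355493), and no other coding gene reaches its window. The PBS library covered 7542 bp of the window and the lysine library 2977 bp, a difference of -4565 bp. Of 21900 genes it ranked 1 by covered length in PBS, where the next gene had 6671 bp, and 40 in lysine. Its shortfall also ranked 1, before one of -4334 bp. Peaks took up 55.5% of the window in PBS and 21.9% in lysine, ranks 4 and 60 of all genes, and 4 genes in PBS reached 50%. The wide PBS regions of Il3ra were in view when the genes were chosen, so nothing is read from these ranks.

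The long PBS regions on Il3ra were strips of narrower blocks joined through weaker stretches, and the lysine peaks lay on those blocks. The first PBS peak (14345598 to 14350054, 4457 bp) began 897 bp before the annotated start and ended 3559 bp after it. It was the fifth widest of its list (width rank 5), at 7.55-fold enrichment and −log10 q 12.7, stronger than 94.8% of PBS peaks. It held a block of 933 bp over the start (14345598 to 14346530) and a block of 692 bp (14349363 to 14350054). Opposite these stood lysine peaks of 886 bp (14345653 to 14346538; fold 7.03, −log10 q 10.1) and 683 bp (14349406 to 14350088; fold 8.97, −log10 q 15.9). Within the lysine list they were stronger than 91.4% and 97.5% of peaks. Between these lysine peaks lay 2867 bp without a call, all of it under the PBS peak but only 43 bp of it under a PBS block. So the start of the gene and a site about 3 kb inside it were called in both libraries, and what PBS had in addition was the stretch between them.

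Farther into Il3ra, PBS had a weaker peak of 3085 bp (14351540 to 14354624), at 4.03-fold enrichment and −log10 q 2.88, stronger than 28.5% of its list. Its blocks measured 415, 854 and 477 bp. The lysine library had 1408 bp there (14351789 to 14353196; fold 4.85, −log10 q 4.61, stronger than 61.0% of its list), with a block of 775 bp inside the middle PBS block. The last PBS block, 14354148 to 14354624, had no lysine peak. In sum 2943 bp were covered in both libraries, 98.9% of the lysine length. Of the 4599 bp covered in PBS alone, 836 bp lay in PBS blocks and 3763 bp, or 81.8%, outside them. By blocks alone Il3ra had 3371 and 1969 bp, a difference of -1402 bp that ranked 58 of all genes, and its PBS length ranked 19. Blocks made up 44.7% of its covered length in PBS and 66.1% in lysine, compared with 82.9% and 84.5% over the whole lists.

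**Figure D2:**
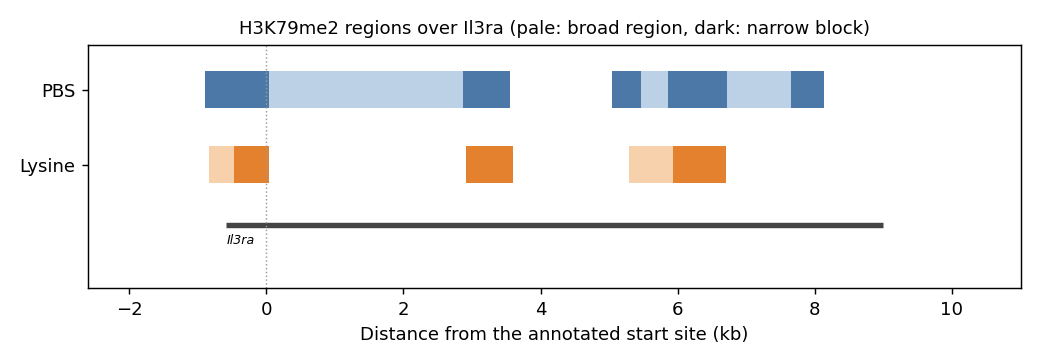
Broad regions (pale) and narrow blocks (dark) of the PBS and lysine libraries over Il3ra, by distance in kb from the annotated start site (dotted line). The grey bar is the gene body, which begins before that site in the RefSeq table. The 3 lysine regions lie at the places of PBS blocks, and the gap of 2867 bp between the first 2 of them falls on the pale part of the first PBS region.

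The 3 genes nearest to Il3ra in covered length of both libraries were Creb5 (6671 and 4042 bp), Lpp (6179 and 3596 bp) and Ptprj (5736 and 2957 bp), at distances of 1376 to 1806 bp in the plane of both lengths, taken over 2 libraries. They are far longer genes of 413139, 599229 and 150939 bp, and their PBS lengths were spread over 10, 12 and 6 peaks where Il3ra had 2.

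**Figure D3:**
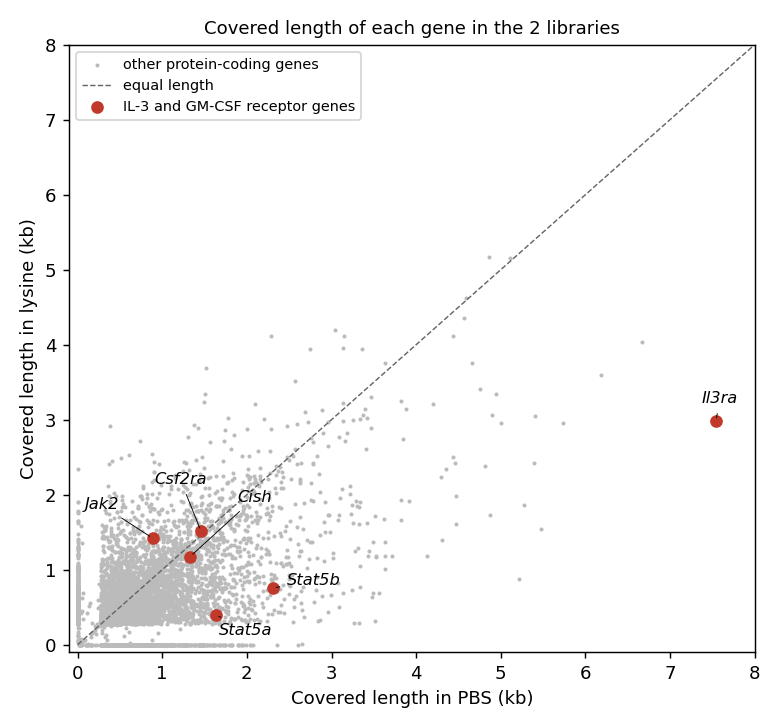
Covered length in kb in PBS (horizontal) and lysine (vertical) of every protein-coding gene with a peak in either library (grey), with the 6 members that had a peak in red and the line of equal length dashed. Il3ra is the point farthest to the right, Jak2 and Csf2ra lie above the line, and Stat5a, Stat5b and Cish lie below it.

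Csf2ra, the alpha chain of the GM-CSF receptor, was covered alike in both libraries. The gene lies on chromosome 19 (61217191 to 61228461, minus strand), and each library had a single peak on it that was one block from end to end. The PBS peak spanned 1459 bp (61226167 to 61227625; fold 5.45, −log10 q 6.18) and the lysine peak 1512 bp (61226206 to 61227717; fold 4.46, −log10 q 3.58). They shared 1420 bp and differed by 53 bp in length. Both lay inside the gene, from 793 to 2251 bp and from 701 to 2212 bp after the start, and left the printed promoter with its pair of GAGGAA uncovered. The lysine peak was stronger than 45.8% of its list and the PBS peak than 73.7% of its own, so under a minimum −log10 q of 5 the PBS peak alone was left, a difference of -1459 bp.

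No H3K79me2 peak was called on the beta chain genes in either library. Csf2rb (chromosome 15, 78325800 to 78351001) had no peak within 50 kb outside its window in either list. Csf2rb2 (78282507 to 78305721) had its nearest PBS peak 14366 bp away, a weak one of 277 bp at −log10 q 1.88, and its nearest lysine peak 23946 bp away, over Ncf4. Of all genes 58.6% had no peak in either library. The pair are close copies of each other, and how reads that match both were treated is not given in the sources used here. A gene without a called peak can carry the mark below the threshold, so its absence is not shown.

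Jak2, the kinase that starts signalling from the beta chain, was the member that gained at least 500 bp of covered length in lysine. The gene runs over 61293 bp of chromosome 19 (29251803 to 29313095) and carried 889 bp under PBS peaks and 1419 bp under lysine peaks, 530 bp more. Each library had a peak at the start and a peak about 19 kb into the gene. At the start both peaks began at 29251187, 616 bp before the start site. The PBS peak ended 204 bp before that site (413 bp; fold 3.58, −log10 q 1.95), while the lysine peak reached 126 bp past it (743 bp; fold 6.04, −log10 q 7.64). Within its own list the PBS peak was stronger than 8.70% of peaks and the lysine peak than 83.6%. The inner site had 476 bp in PBS (29271075 to 29271550; fold 4.82, −log10 q 4.46) and 676 bp in lysine (29270979 to 29271654; fold 3.77, −log10 q 2.18). Here the order within the lists was the other way round, with 56.5% of PBS peaks and 16.5% of lysine peaks weaker. All 889 bp of PBS also lay under lysine peaks. The covered length was larger in lysine, by 267 to 943 bp, under every way of counting except with peaks of at least 1 kb, which left none on the gene. These settings do not all compare the same sites. At a fold of at least 4, PBS kept only the inner peak and lysine only the peak at the start. Under a minimum −log10 q of 5, PBS kept no peak and lysine only the peak at the start.

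Stat5a and Stat5b, the transcription factors that carry the signal to the nucleus, are neighbours on chromosome 11 and share a peak. Stat5b (100780731 to 100859004, minus strand) and Stat5a (100859351 to 100885169, plus strand) stand head to head, so a region at the Stat5a start counts for both windows. Stat5a had 1630 bp under PBS peaks and 400 bp under lysine peaks, and Stat5b had 2304 and 754 bp. The shared PBS peak (100858867 to 100860496; fold 3.72, −log10 q 2.34) covered both annotated Stat5a starts but had a single block of 360 bp at its outer end, 100858867 to 100859226. That block also covered the upstream end of the Stat5b gene body, at 100859004. The lysine peak of 400 bp (100860244 to 100860643; fold 4.61, −log10 q 4.04) was one block over the downstream start, whose promoter is printed above. These peaks shared 253 bp. The PBS block and the lysine block did not touch, so the strongest stretch was called at a different place in each library.

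Farther inside Stat5b the libraries had no peak in common. PBS had 674 bp without a block (100821455 to 100822128; fold 3.40, −log10 q 1.53), 442 to 1115 bp after the inner annotated start and stronger than only 0.528% of its list. Lysine had 354 bp (100853071 to 100853424; fold 4.95, −log10 q 5.20, stronger than 67.6% of its list), 2490 bp before the outer annotated start at 100850581. The shortfall of both genes in lysine, -1230 and -1550 bp, rested on weakly called PBS regions. With equal numbers of peaks, and with peaks of a fold of at least 4, it turned to 400 bp more in lysine for Stat5a and 754 bp more for Stat5b. By narrow blocks it turned to 40 and 394 bp more, and under a minimum −log10 q of 5 Stat5b alone differed, by 354 bp. The shared PBS peak, at strength rank 9885, fell just outside the 9805 PBS peaks kept with equal numbers.

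Cish, which damps signalling of these receptors, was marked over its start in both libraries. The gene is 6126 bp long (chromosome 9, 107296659 to 107302784) with 1330 bp under the PBS peak and 1175 bp under the lysine peak, a difference of -155 bp. The PBS peak (107295654 to 107296983; fold 6.73, −log10 q 10.4) ran from 1005 bp before to 324 bp after the start and was a single block. The lysine peak (107295898 to 107297072; fold 5.27, −log10 q 6.12) ran from 761 bp before to 413 bp after it, with a block of 693 bp in its downstream part. They shared 1086 bp, and both lay over the whole printed promoter with its pair of TTCNNNGAA. Within their lists they were stronger than 91.0% and 75.2% of peaks. Counted in the gene body alone, the lysine length was larger, 414 against 325 bp. Just outside the window, 3401 bp past the gene, PBS had a further peak of 285 bp (−log10 q 3.09), and the nearest outer lysine peak lay 6720 bp away over Mapkapk3.

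**Figure D4:**
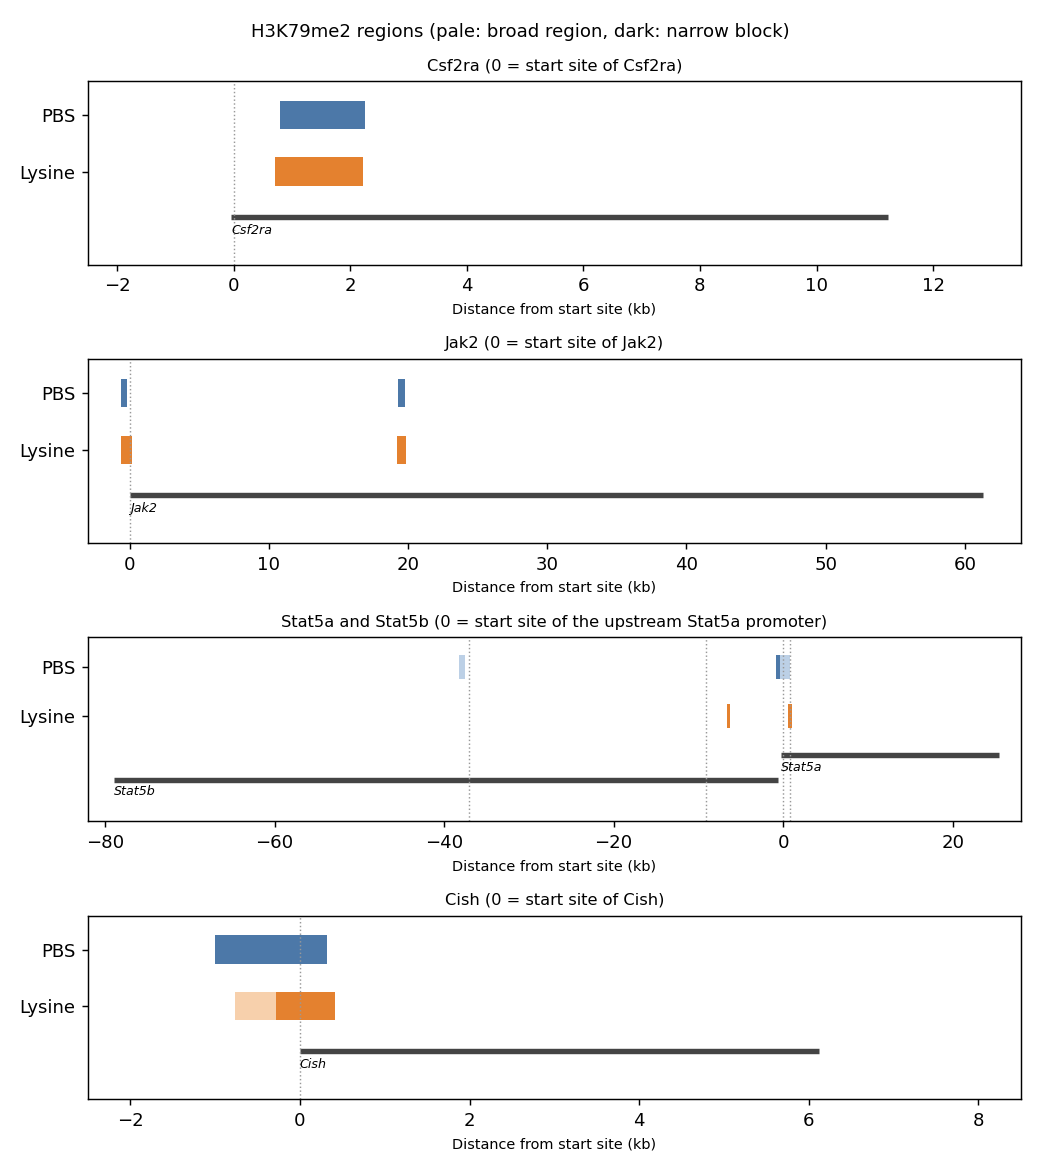
Broad regions (pale) and narrow blocks (dark) of both libraries over Csf2ra, Jak2, Stat5a with Stat5b, and Cish, by distance in kb from a start site, with gene bodies as grey bars and annotated starts as dotted lines. The regions of Csf2ra, Jak2 and Cish stand at the same places in both libraries, whereas those on the Stat5 genes meet only at the Stat5a start.

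Taking each region once, 8 PBS peaks and 9 lysine peaks lay on these genes. A partner in the other list, sharing 1 bp or more, was found for 7 PBS peaks (87.5%). It was found for 8 lysine peaks (88.9%). Over all peaks the shares were 61.9% and 75.3%. The genes were chosen with peak widths in view and several peaks lie on the same gene, so nothing is read from this contrast. The peaks without a partner were those inside Stat5b. If the overlap had to reach 50% of the peak, 4 of 8 PBS peaks and 8 of 9 lysine peaks were shared, since both wide PBS regions of Il3ra and that of Stat5a were less than 50% covered.

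The windows were well set off from other peaks, apart from the Stat5 pair and Cish. Il3ra had no peak of either list within 50 kb outside its window. The nearest outer peak of Csf2ra lay 16309 bp away in PBS and 37037 bp away in lysine, and neither was on a coding gene. For Jak2 it lay 12022 bp away in PBS, over Insl6, and 48577 bp away in lysine, over Plgrkt. For Stat5b the distances were 18796 bp (Hcrt) and 41913 bp (Rab5c).

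Among starts under a peak, the Il3ra, Jak2 and downstream Stat5a ones were rich in CpG. The upstream Stat5a and Cish starts were not. Promoter windows of 300 bases under a PBS peak had a median GC content of 62.7% and 24 CpG, and windows under no peak of either library 50.3% and 5. Il3ra had 74.3% and 35 CpG, with 300 and 294 bases under the PBS and lysine peaks. Jak2 had 81.0% and 44 CpG, with 47 and 300 bases covered, and the downstream Stat5a start 67.7% and 27 CpG, with 263 and 290 bases covered. The upstream Stat5a start, at 57.7% and 5 CpG, was covered in PBS alone. Cish had 53.3% and 11 CpG under a peak in both libraries. The outer annotated Stat5b start, at 100850581, had the most CpG of these (50, at 82.7% GC) and no peak over it. The shared PBS peak did reach the upstream end of the Stat5b gene body, at 100859004. Csf2ra (65.3%, 23 CpG) and Csf2rb2 (55.0%, 3 CpG) had no peak over the start.

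Other genes of the pathway, 82 in 6 lists, held PBS peaks at 55 genes and lysine peaks at 53, over 66300 and 51909 bp, or 78.3%. The lysine length was the shorter in 33 and the longer in 25, against 24.5% and 16.8% of all genes. It was so by at least 500 bp in 17 and 8, against 5.86% and 2.87%. Genes without a peak in either library cannot differ, so these shares over all genes are low. Among all genes with a peak in either library 59.3% were shorter and 40.6% longer, and 14.1% and 6.93% were so by at least 500 bp. Nothing is read from these counts. The median difference was 0 bp. Over all 21900 genes it was also 0 bp, which the 58.6% of genes without a peak in either library fix. The ligand genes Il3, Csf2 and Il5 and the IL-5 receptor alpha chain Il5ra had no peak in either library. Of 8 other Janus kinases and STATs, 7 held PBS peaks and 6 lysine peaks, and 5 were shorter and 2 longer in lysine (6367 and 5530 bp). Stat3, next to Stat5a, had 1917 and 1903 bp, the kinase Tyk2 1620 and 956 bp, and the IL-4 response factor Stat6 828 and 1294 bp. Without a flank Stat6 was longer in lysine by 35 bp only, and the gene Nab2 also reaches into its window. Tyk2 turned to 391 bp more in lysine with equal numbers of peaks, and this list's sum turned to 1773 bp more. Of 16 other cytokine receptors 9 and 8 had a peak, with 6 shorter and 3 longer (7556 and 5510 bp). Il7r had 1742 and 372 bp, Il6ra 2016 and 1097 bp, and Csf1r, the receptor of the macrophage growth factor, 1212 and 1160 bp. With equal numbers of peaks the sum of these receptors turned to 1406 bp more in lysine, Il6ra to 1097 bp more and Csf1r to 778 bp more.

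Among 16 inhibitors, 11 held PBS peaks and 12 lysine peaks, and 7 were shorter and 6 longer in lysine (14370 and 11867 bp). The SOCS-family gene Socs2 had 2532 and 935 bp, though by narrow blocks it was longer in lysine by 379 bp. The ubiquitin ligase Cbl had 2113 and 2173 bp, and Pias1 0 and 992 bp. Of 23 adaptors and kinases downstream of the beta chain 18 and 16 had a peak, and 9 were shorter and 9 longer (19233 and 14560 bp), a sum that turned to 1309 bp more in lysine with peaks of at least 1 kb alone. The tyrosine kinase Syk had 3527 bp in 7 peaks in PBS and 1171 bp in 3 peaks in lysine, the phosphoinositide 3-kinase subunit Pik3cd 2431 and 1046 bp, and the adaptor Grb2 1717 and 2255 bp. Without a flank Grb2 was longer in lysine by 18 bp only. Of 15 genes known as STAT5 targets 10 and 11 had a peak, with 6 shorter and 5 longer (18774 and 14442 bp). The kinase gene Pim1 had 3472 and 2891 bp, the repressor gene Bcl6 3477 and 641 bp, Myc 2492 and 875 bp, and the survival gene Bcl2 2424 and 2235 bp. By narrow blocks Pim1, Myc and Bcl2 turned to 201, 382 and 318 bp more in lysine, and the list's sum to 1012 bp more.

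**Figure D5:**
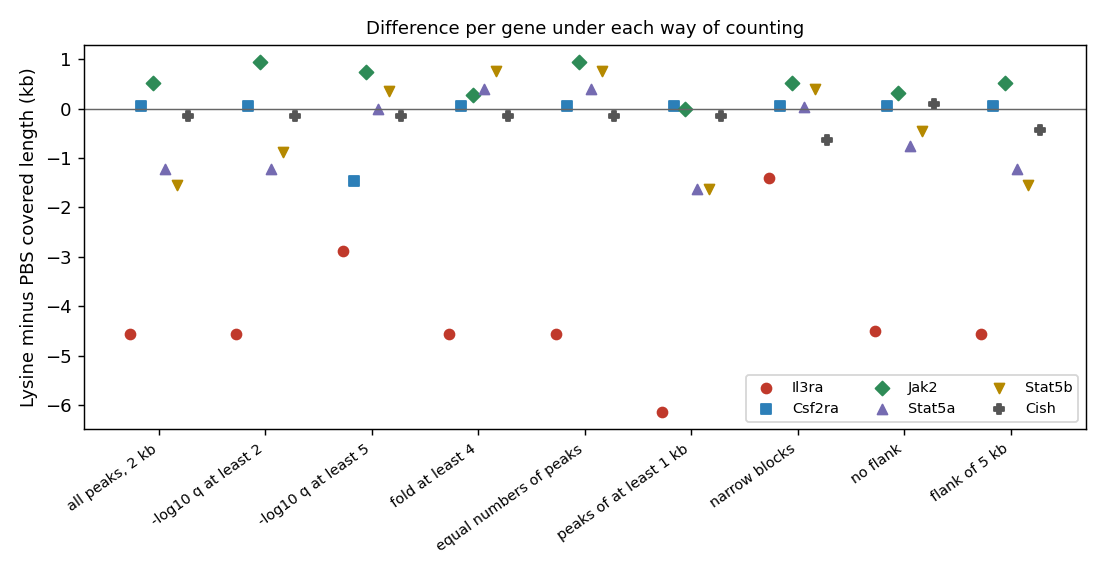
Lysine minus PBS covered length in kb (vertical axis) of the 6 members with a peak, under each way of counting (horizontal axis). Il3ra stays below 0 throughout, from -6134 bp with peaks of at least 1 kb to -1402 bp by narrow blocks, Jak2 is at or above 0, and Stat5a and Stat5b lie on both sides.

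Across the ways of counting, Il3ra was shorter in lysine under all 8 alternatives. Its shortfall ranked 1 of all genes in 6 of them, 4 under a minimum −log10 q of 5 and 58 by narrow blocks. All 8 recount the same peaks of a gene chosen with its wide PBS regions in view, so nothing is read from their agreement. A minimum −log10 q of 2, a fold of at least 4, equal numbers of peaks and a flank of 5 kb left every Il3ra peak in place, at -4565 bp. Jak2 was longer in lysine in 7 of the 8 and without a peak in the remaining one. Csf2ra differed by 53 bp in all but one, and Cish by -155 bp in 5, with -637 bp by narrow blocks, -440 bp with a flank of 5 kb and 89 bp without a flank.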

How the data were processed

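H3K79me2 ChIP-seq and input libraries of BMDCs were sequenced with paired ends of 150 bases after 15 PCR cycles, per the labels' protocols. Per the submitters' processing notes the build was GRCm38, and the tools included MACS2 2.1.2 and Bowtie2 2.3.4.1, with Trimmomatic 0.38 and cutadapt 1.18 also listed, their settings unstated. For calling thresholds and the role of the inputs, the sources used here give nothing. The authors deposited a broad and a gapped list per sample, without header, read here by the MACS2 layout. The deposited fold enrichment is a linear ratio of signal to local background. The deposited −log10 p and −log10 q are averages over the peak, and the score the authors deposited is their −log10 q times 10, cut to a whole number, except in 1 lysine peak. Fold and q describe peaks within their own list. Blocks of 1 bp mark region ends and were left out.

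Covered length is the union of broad peaks clipped to the gene body plus 2 kb. It was checked on simulated intervals and against bedtools 2.31.1 over 21900 windows, with 0 differences. Groups came from the sample titles. Alternatives were a minimum −log10 q of 2 or 5, a fold of at least 4, equal numbers of peaks (the strongest PBS peaks by −log10 q), peaks of at least 1 kb, narrow blocks, and flanks of 0 and 5 kb. Leaving out Il3ra was added after seeing the data. The members and lists were chosen with earlier results of these data known. Named are all members with all their peaks, and, for every other list, 2 genes by summed covered length and 2 by absolute difference. For markers only the 2 with most covered length follow this rule, and the markers without a peak were named after their values were seen. The 3 genes nearest to the member with the largest difference are also named. A planned comparison of the Csf2rb and Csf2rb2 proteins was not made. Python 3.11.15, numpy 2.4.6, pandas 2.3.3, scipy 1.17.1 and matplotlib 3.10.9 were used.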

Additional observations from a re-analysis of the deposited data

How the results depend on the processing

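The difference over the 8 genes, -5687 bp, kept its sign: -4600 bp under a minimum −log10 q of 2, -3405 bp at 5, -3646 bp at a fold of at least 4, -2970 bp with equal numbers of peaks, -7866 bp with peaks of at least 1 kb, -1062 bp by narrow blocks, -5245 bp without a flank, -5972 bp with a flank of 5 kb, and -1122 bp without Il3ra. The 7 genes without Il3ra turned to 919 bp at a fold of at least 4, 1595 bp with equal numbers and 340 bp by narrow blocks, and differed by -35 bp under a minimum −log10 q of 2. Members shorter in lysine went from 4 to 2, and those longer from 2 to 4, at a fold of at least 4, with equal numbers and by narrow blocks. With peaks of at least 1 kb 1 member was longer. The other pathway genes differed by -14391 bp, and in the same order of settings by -13371, -5739, -14583, -2816, -9370, -7049, -13497 and -16795 bp. Over all genes 5374 windows were shorter and 3682 longer in lysine, 2915 and 1867 under a minimum −log10 q of 5, and 941 and 562 with peaks of at least 1 kb. A threshold of 1000 bp in place of 500 bp left 466 losses and 156 gains.

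Csf2ra turned under a minimum −log10 q of 5 (-1459 bp). Stat5a and Stat5b turned at a fold of at least 4 and with equal numbers (400 and 754 bp in each), and by narrow blocks (40 and 394 bp), and Stat5b also under a minimum −log10 q of 5 (354 bp). Cish turned without a flank (89 bp). Of the lists, other Janus kinases and STATs turned under a minimum −log10 q of 2 (1473 bp) and 5 (2000 bp), at a fold of at least 4 (1727 bp), with equal numbers (1773 bp) and with peaks of at least 1 kb (225 bp). The other receptors turned with equal numbers (1406 bp), the adaptors with peaks of at least 1 kb (1309 bp) and the STAT5 targets by narrow blocks (1012 bp). Under a minimum −log10 q of 2, Tyk2 (391 bp) and Cbl (-508 bp) turned. At 5, Bcl2 (936 bp), Tyk2 (48 bp), Cbl (-385 bp), Stat3 (1903 bp) and Bcl6 (1 bp) turned. At a fold of at least 4, Tyk2 (48 bp), Cbl (-690 bp) and Pim1 (45 bp) turned. With equal numbers, Il6ra (1097 bp), Tyk2 (391 bp), Pim1 (1155 bp) and Csf1r (778 bp) turned, and with peaks of at least 1 kb Csf1r (1160 bp). By narrow blocks, Bcl2 (318 bp), Tyk2 (391 bp), Cbl (-112 bp), Socs2 (379 bp), Stat6 (-477 bp), Stat3 (347 bp), Myc (382 bp) and Pim1 (201 bp) turned. The cause of these turns was not tested.

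No paired analysis was possible because there is 1 library per condition and no test. A gene whose mark lies below the calling threshold is listed at 0, and without read counts the smallest visible change is unknown.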
